A study of Mus musculus with 26 samples.

Results

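The 8 genes of brain cholesterol metabolism described here are Hmgcs1, Idi1, Fdft1, Sqle, Cyp51, Sc4mol and Dhcr7 of the synthesis route, and Cyp46a1 of turnover. Their levels were read from 5 deposited comparisons of mouse striatum. They were chosen by name, with earlier results of these data known, and rows were taken where the gene symbol of a table matched. Of the 8 listed genes, 7 had a row in all 5 tables, against 12701 to 14539 rows per table. Levels were thus read for 7 genes. Hmgcs1 had no row under that symbol in any of the 5 tables, and it enters through its promoter sequence alone. The symbol Sc4mol is an older name of Msmo1.

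The brain makes its own cholesterol, since lipoproteins of the blood do not cross the blood-brain barrier. Astrocytes and oligodendrocytes carry much of the synthesis in the adult, and myelin holds most of the pool. The enzymes from acetyl-CoA to cholesterol are switched on together by the transcription factor SREBP-2, which acts with NF-Y when sterol levels in the endoplasmic reticulum fall. Cholesterol leaves the brain mainly after neurons hydroxylate it with Cyp46a1, and lower synthesis and lower Cyp46a1 have been described in Huntington's disease models.

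The 26 libraries of total striatal RNA form 9 groups. R6/1 mice express, from a transgene, exon 1 of human huntingtin with an expanded repeat. They were compared with wild type (WT) at 4 weeks and at 8 weeks, with 3 libraries in each group. CHL2, a line whose mouse huntingtin gene carries an expanded repeat, was compared with WT at 1 year, also with 3 libraries in each group. At 10 weeks, WT and R6/1 mice that had received a control adeno-associated virus (AAV) gave 2 libraries each, and R6/1 mice that had received Elk-1 AAV gave 4. All 3 of these groups carried a vector, whose promoter and target cells the sources used here do not give. Sex, strain background and whether each library is 1 animal are not stated either.

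Each table gives 1 pooled FPKM per group and gene (fragments scaled to transcript length and library depth, a level per length) and the authors' own p-value and q-value. There is no value per library, so no spread between libraries could be computed, and depth per library is unknown. The words rose and fell are kept for genes with a q below 0.05 there. The lowest p the tables hold is 5e-05. All 8 markers of the spiny projection neurons of the striatum were listed above 0 in every group. Elk1, the gene in the vector, stood at an FPKM of 15.1 with control AAV and 30.1 with Elk-1 AAV in the authors' deposited table (log2 fold change 1.00, q = 0.0122).

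Promoter windows from RefSeq (build GRCm38.p6, 250 bases before to 50 after a start) were matched for 6 of the 8 genes: Hmgcs1, Idi1, Cyp51, Sc4mol, Dhcr7 and Cyp46a1. They are shown because the synthesis genes are known to share a control through sterol regulatory elements and NF-Y boxes. The stretches below run 5′ to 3′ on the gene's strand, with the NF-Y box nearest before the start in capitals (CCAAT, or ATTGG where it lies on the other strand).
Sc4mol: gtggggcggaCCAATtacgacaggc
Cyp51: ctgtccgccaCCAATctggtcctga
Idi1: ccaaggtgccATTGGctggcgaccg
Dhcr7: tccacttccgATTGGtcgtctgtga
Hmgcs1: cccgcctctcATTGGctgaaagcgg
Cyp46a1: ccaggttgtgATTGGtgaatactta
In the same order these stretches are chr8:64733619-64733643 (minus strand), chr5:4104712-4104736 (minus strand), chr13:8885582-8885606, chr7:143830155-143830179, chr13:119690296-119690320 and chr12:108334153-108334177. The box starts 55 bases before the start in Sc4mol, 29 in Cyp51, 14 in Idi1, 49 in Dhcr7, 45 in Hmgcs1 and 153 in Cyp46a1. Dhcr7 has 3 windows, and the printed stretch is from the one with the box.

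An NF-Y box on either strand lay in the windows of all 6 matched genes, and in those of 10 of the 11 matched other genes of sterol synthesis. Of all genes with a window 41.1% hold one, and of all windows 37.4% do, against 6 of 8 windows of the listed genes. The sterol regulatory element, searched as TCACNCCAC on both strands, matched only in Hmgcs1 of the 6, and in 1.44% of all genes.
Hmgcs1: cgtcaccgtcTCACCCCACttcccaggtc
This second Hmgcs1 stretch is chr13:119690204-119690232, with the element in capitals. The core of an ETS site, the kind of sequence Elk-1 binds, was searched as CCGGAAG on both strands. It matched in Dhcr7 and Hmgcs1 of the 6 and in 9.93% of all genes. None of these matches overlapped another kind of match in the stretches shown.

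**Figure D1:**
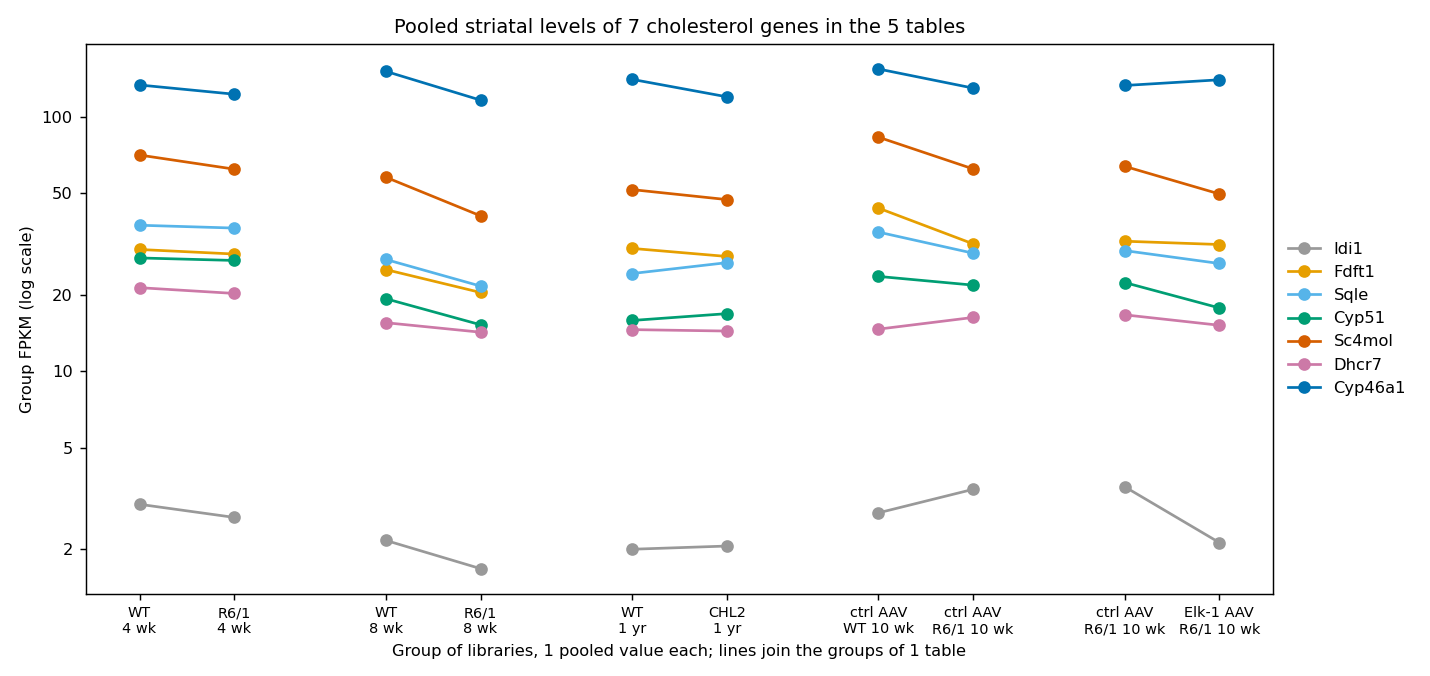
Group FPKM on a log axis for 7 genes, 1 pooled value per group (points), with lines joining the 2 groups of a table; there are no error bars because the tables hold no value per library. Cyp46a1 lies highest in all 10 values, between 116 and 154, and Idi1 lowest, between 1.67 and 3.51.

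The genes kept nearly the same order of level in all groups. Cyp46a1, the hydroxylase of neurons that turns cholesterol into the oxysterol that leaves the brain, was the highest of the 7, with group FPKM values from 116 to 154 in the authors' deposited tables. Sc4mol, the oxidase that takes methyl groups off the sterol ring, followed with 40.8 to 83.1. Fdft1, which makes squalene, lay between 20.4 and 43.7, and Sqle, which oxidises squalene, between 21.6 and 37.4. Cyp51, the sterol demethylase, lay between 15.2 and 27.8, and Dhcr7, which reduces the last double bond on the way to cholesterol, between 14.2 and 21.3. Idi1, the isomerase of the isoprenoid units, was lowest with 1.67 to 3.51. The only pair that changed places was Fdft1 and Sqle, with Fdft1 higher in 6 of the 10 values and Sqle in 4, so these neighbours cannot be ordered. For 6 of the 7 genes the row had a position of its own. Fdft1 on chromosome 14 (mm9, 63741298 to 63796630) is listed at the same position as Ctsb, a lysosomal protease gene with a level of 130 to 205, and how the authors' program shared reads between these genes is unknown.

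The lowest FPKM of each of the 7 genes was that of R6/1 at 8 weeks, but the tables were made separately. Ranked by level among the rows of its own pool, only Fdft1 had its lowest place there (percentile 71.1). Sc4mol stood at percentile 86.6 there and at 84.4 in its lowest pool, and Cyp46a1 at 96.8 and 95.6. Such ranks also depend on which rows a table holds. In WT the levels of the synthesis genes at 4 weeks, 8 weeks and 1 year, set side by side from tables that were made separately, were 70.7, 57.8 and 51.7 for Sc4mol. The same values were 37.4, 27.5 and 24.2 for Sqle, 27.8, 19.3 and 15.8 for Cyp51, and 21.3, 15.5 and 14.6 for Dhcr7. Idi1 stood at 2.997, 2.16 and 1.99. These 5 genes thus had their highest WT value at 4 weeks and their lowest at 1 year among the animals without a vector. Fdft1 (30.1, 25.1 and 30.4) and Cyp46a1 (133, 151 and 140) did not follow this order. No test across ages was possible, since each group has only 1 pooled value.

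At 8 weeks all 7 genes had lower values in R6/1 than in WT striatum, and 1 of them, Sc4mol, fell. That is 1 of 7, beside 6.12% of all rows called in that table. Sc4mol, on chromosome 8 (mm9, 67196941 to 67212375), went from 57.8 in WT to 40.8 in R6/1 (log2 fold change -0.50, p = 5e-05 with q = 0.00160 in the authors' deposited table). Its p is the lowest the table holds, which 448 of its 14320 rows share. The next nearest to the threshold was Cyp46a1 on chromosome 12 (mm9, 109572590 to 109600444), with 151 in WT and 116 in R6/1 (log2 fold change -0.38, p = 0.00375 with q = 0.0577 in the authors' deposited table), which did not pass.

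The other synthesis genes differed by less or with a weaker test at 8 weeks. Sqle, on chromosome 15 (mm9, 59146646 to 59162748), stood at 27.5 in WT and 21.6 in R6/1 (log2 fold change -0.35, p = 0.00900 with q = 0.113 in the authors' deposited table). Cyp51, on chromosome 5 (mm9, 4080673 to 4104697), stood at 19.3 and 15.2 (log2 fold change -0.34, p = 0.00885 with q = 0.111 in the authors' deposited table). Both had a p below 0.05 before adjustment, as did Sc4mol and Cyp46a1, so 4 of the 7 genes were at that level beside 14.3% of all rows. Idi1, on chromosome 13 (mm9, 8884851 to 8891642), stood at 2.16 and 1.67 (log2 fold change -0.37 with q = 0.627 in the authors' deposited table). Fdft1 stood at 25.1 and 20.4 (-0.30, q = 0.964), while Ctsb, at the same listed position, stood at 140 and 145 in the authors' deposited table. Dhcr7, on chromosome 7 (mm9, 151009071 to 151034315), differed least, with 15.5 and 14.2 (log2 fold change -0.12 with q = 0.891 in the authors' deposited table).

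On the log2(FPKM + 1) scale the median change of the 6 synthesis genes at 8 weeks was -0.30, beside 0.01 over the 14105 genes whose mean FPKM reached 0.5. The 6 changes ran from -0.49 to -0.12. The summed FPKM of the 6 genes was 147 in WT and 114 in R6/1.

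Markers of several cell types moved in the same 8-week comparison. All 8 projection neuron markers fell, with a summed FPKM of 2984 in WT and 1067 in R6/1. Of 5 general neuronal markers 2 had higher and 3 lower values with 0 called (sums 1665 and 1512). Of 10 oligodendrocyte markers all had lower values and 1 fell (Ugt8a, which makes a myelin lipid), with sums of 5022 and 4124. Of 7 astrocyte markers all had lower values and 0 were called, with sums of 1149 and 1003. Of 3 choroid plexus markers 2 fell (sums 1484 and 573), and all 3 cortical neuron markers fell (sums 298 and 186). Hypothalamic markers went the other way, with higher values in 3 of 4 cases and 1 that rose (sums 10.8 and 22.0). No marker was listed at 0. In bulk tissue fewer cells of a type, less RNA per cell and differing amounts of neighbouring tissue in a sample cannot be told apart. The part of these shifts in the lower cholesterol genes was not tested.

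**Figure D2:**
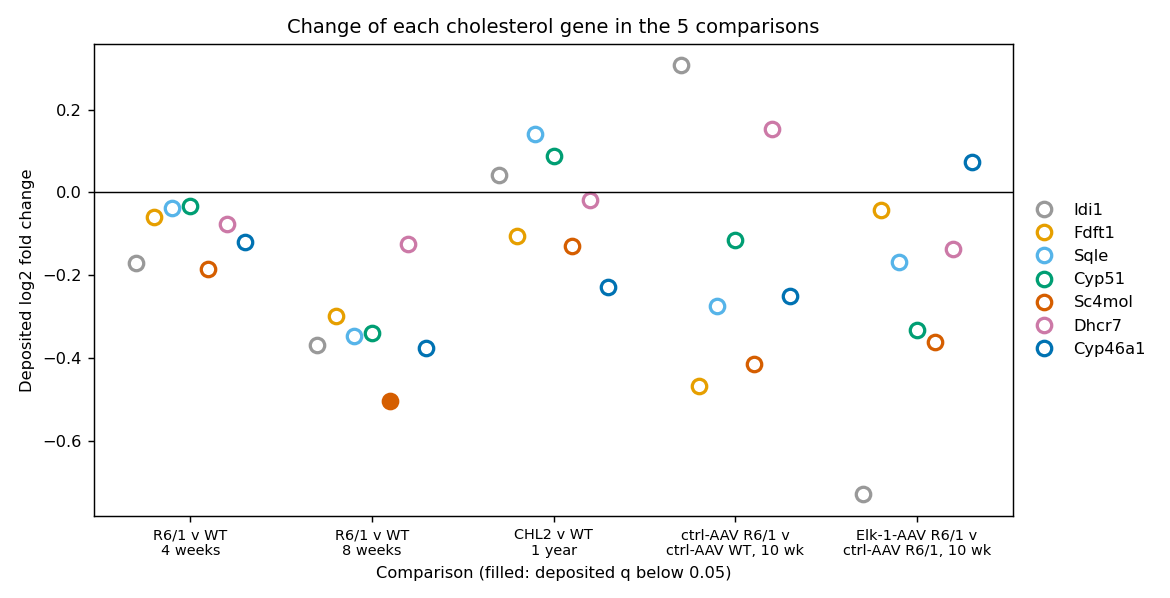
Deposited log2 fold change of each gene (points, coloured by gene) in the 5 comparisons, filled where the deposited q was below 0.05. Sc4mol at 8 weeks, at -0.50, is the only filled point, and all 7 points lie below 0 at 4 and at 8 weeks.

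At 4 weeks the same 7 genes all had lower values in R6/1, and none was called. The count of 0 of 7 stands beside 0.468% of rows called by the authors' test in that table. At an unadjusted p below 0.05 it was also 0 of 7, beside 5.36% of rows. The deposited log2 fold changes were -0.18 for Sc4mol (70.7 and 62.2, p = 0.0942), -0.17 for Idi1 (2.997 and 2.66) and -0.12 for Cyp46a1 (133 and 123) in the authors' deposited table. They were -0.08 for Dhcr7, -0.06 for Fdft1, -0.04 for Sqle and -0.03 for Cyp51, with a q of 0.999 for each of the 7 in the authors' deposited table. The median change of the 6 synthesis genes was -0.06, beside 0.00 over all genes, and their summed FPKM was 190 and 178. Of the 8 projection neuron markers 2 fell (sums 2578 and 1972). Of 5 general neuronal markers 4 had higher values and 0 were called (sums 1422 and 1484). Of the 10 oligodendrocyte markers 6 had higher values in R6/1 and 0 were called (sums 8349 and 8510). Astrocyte markers had higher values in 3 of 7 cases with 0 called (sums 1153 and 1110). Cortical markers had higher values in 2 of 3 cases with 0 called (sums 238 and 233). Of 4 hypothalamic markers 2 fell (sums 94.6 and 36.3). The 3 choroid plexus markers had higher values with 0 called, 2 of them at an unadjusted p below 0.05 (sums 554 and 673). The part of these shifts was not tested. Whether the effects of the 2 ages differ was not tested.

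In CHL2 at 1 year the synthesis genes went both ways and none of the 7 genes was called, beside 3.65% of rows called by the authors' test. Sqle stood at 24.2 in WT and 26.7 in CHL2 (log2 fold change 0.14, q = 0.716), and Cyp51 at 15.8 and 16.8 (0.09 with q = 0.867) in the authors' deposited table. Sc4mol stood at 51.7 and 47.2 (log2 fold change -0.13, q = 0.742), and Fdft1 at 30.4 and 28.2 (-0.11 with q = 0.976) in the authors' deposited table. Idi1 (1.99 and 2.05) and Dhcr7 (14.6 and 14.4) had log2 fold changes of 0.04 and -0.02 in the authors' deposited table. The 6 genes summed to 139 and 135, and their median change was 0.01, beside 0.00 over all genes.

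Cyp46a1 was the gene with the largest difference of the 7 in CHL2, at 140 in WT and 120 in CHL2 (log2 fold change -0.23, p = 0.0493 with q = 0.374 in the authors' deposited table). It was the only one of the 7 with an unadjusted p below 0.05, beside 13.3% of rows. Here the 8 projection neuron markers fell (summed FPKM 2680 and 1334) and 5 of the 10 oligodendrocyte markers fell (4924 and 3382). Of 5 general neuronal markers 2 had higher and 3 lower values with 0 called (1712 and 1602). Of the 7 astrocyte markers 0 were called (1157 and 1069). Of 4 hypothalamic markers 3 rose (64.3 and 151). The part of these shifts in the level of Cyp46a1 was not tested.

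Between the control-AAV groups at 10 weeks, 5 of the 7 genes had lower values in R6/1 and none was called, beside 3.24% of rows called by the authors' test. Sc4mol went from 83.1 in WT to 62.3 in R6/1 (log2 fold change -0.41, p = 0.0344 with q = 0.384 in the authors' deposited table), without passing. It was the only one of the 7 with an unadjusted p below 0.05, beside 10.7% of rows. Fdft1 stood at 43.7 and 31.6 (log2 fold change -0.47, q = 0.959), and Ctsb at 195 and 181 in the authors' deposited table. Sqle stood at 35.2 and 29.1 (-0.28, q = 0.785), Cyp46a1 at 154 and 130 (-0.25, q = 0.803) and Cyp51 at 23.6 and 21.8 (-0.11 with q = 0.984) in the authors' deposited table. Idi1 (2.77 and 3.43, log2 fold change 0.31) and Dhcr7 (14.6 and 16.3, 0.15) had higher values in R6/1 in the authors' deposited table, with q of 0.951 and 0.974.

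The median change of the 6 synthesis genes in this pair was -0.19, beside 0.01 over all genes, and -0.11 without Fdft1 or without Sc4mol. The sums were 203 and 165. Each group held 2 libraries. The 8 projection neuron markers fell here too (sums 2181 and 894), 2 of 5 general neuronal markers fell (2820 and 1856) and the 3 cortical markers fell (558 and 289). The 3 choroid plexus markers rose (339 and 1565), as did the 4 hypothalamic markers (60.8 and 339). Oligodendrocyte markers had higher values in 8 of 10 cases with 0 called (4335 and 4752). Astrocyte markers had higher values in 3 of 7 cases with 0 called (1120 and 1034). The part of these shifts in the cholesterol values was not tested.

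Under Elk-1 AAV all 6 synthesis genes had lower values than under control AAV in R6/1, and Cyp46a1 a higher one. None of the 7 was called, beside 0.575% of rows called by the authors' test. Idi1 stood at 3.51 under control AAV and 2.12 under Elk-1 AAV (log2 fold change -0.73, p = 0.0358 with q = 0.921 in the authors' deposited table). Sc4mol stood at 63.8 and 49.7 (log2 fold change -0.36, p = 0.0362 with q = 0.921 in the authors' deposited table). These 2 of 7 had an unadjusted p below 0.05, beside 4.91% of rows. Cyp51 stood at 22.3 and 17.7 (log2 fold change -0.33, p = 0.0553), Sqle at 29.8 and 26.5 (-0.17) and Dhcr7 at 16.6 and 15.1 (-0.14) in the authors' deposited table. Fdft1 stood at 32.4 and 31.5 (-0.04), and Cyp46a1 at 133 and 140 (0.07 with q = 0.999) in the authors' deposited table.

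The median change of the synthesis genes under Elk-1 AAV was -0.24, beside 0.01 over all genes, and they summed to 168 and 143. The control-AAV R6/1 libraries are the same ones that stood against WT above, so these values are not independent of that pair. For Sc4mol the 2 tables read 83.1 for WT, 62.3 or 63.8 for the shared group, and 49.7 for Elk-1 AAV. For Idi1 they read 2.77, then 3.43 or 3.51, and 2.12. In this comparison the 8 projection neuron markers had higher values with 0 called (915 and 1129). Of 5 general neuronal markers 3 had higher values and 0 were called (1900 and 1920). The choroid plexus markers had higher values in 3 of 3 cases with 1 called (1603 and 2275), and 3 of the 4 hypothalamic markers fell (347 and 29.1). Of 4 microglial markers all had higher values and 1 rose (115 and 177). Oligodendrocyte markers had higher values in 7 of 10 cases with 0 called (4865 and 5223). Astrocyte markers had higher values in 5 of 7 cases with 0 called (1059 and 1151). Cortical markers had higher values in 3 of 3 cases with 0 called (296 and 384). The part of these shifts was not tested.

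Beyond the 8 genes, 14 other genes of sterol synthesis had a row in every table. At 8 weeks 1 of them fell, beside 6.12% of all rows called, so the count is near that share. In the other 4 comparisons 0 were called.

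Of these 14 genes, 9 had lower values at 8 weeks, with a median change of -0.08, beside 0.01 over all genes. Fdps, which makes farnesyl pyrophosphate, stood at 5.91 and 6.50 at 8 weeks (0.14, q = 0.959), and Lss, which closes the sterol rings, at 10.2 and 9.58 (-0.09 with q = 0.955) in the authors' deposited table. Between the control-AAV groups 13 of the 14 had lower values (median -0.19) with 0 called. At an unadjusted p below 0.05 there were 2, beside 10.7% of all rows. The count at 8 weeks was 3, all with lower values, beside 14.3% of rows in either direction. Under Elk-1 AAV it was 1, with a higher value, beside 4.91% of rows. At 4 weeks and in CHL2 it was 0, beside 5.36% and 13.3% of rows. In CHL2 6 of 14 had lower values (median 0.01), at 4 weeks 8 of 14 (median -0.01) and under Elk-1 AAV 9 of 14 (median -0.04).

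Among 13 regulators of sterol synthesis 1 fell at 8 weeks and 1 in CHL2, beside 6.12% and 3.65% of all rows called. In the other 3 comparisons 0 were called. At 8 weeks 8 of the 13 had lower values (median -0.13), in CHL2 7 of 13 (median -0.0026), and between the control-AAV groups 8 of 13 (median -0.12).

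Srebf2, the gene of SREBP-2, stood at 61.0 in WT and 48.1 in R6/1 at 8 weeks (log2 fold change -0.34 with q = 0.0927 in the authors' deposited table). In CHL2 it stood at 55.03 and 54.93, and between the control-AAV groups at 44.6 and 41.5 in the authors' deposited tables. Insig1, which holds the SREBP complex back in the endoplasmic reticulum, stood at 25.15 and 20.4 at 8 weeks (-0.30, q = 0.239) and at 27.6 and 25.6 in CHL2 (-0.11 with q = 0.818) in the authors' deposited tables. Of the 13 regulators 5 had an unadjusted p below 0.05 towards lower values at 8 weeks, beside 14.3% of all rows in either direction.

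Genes of sterol transport had lower values at 8 weeks in 13 of 17 cases (median -0.09), but in 4 of 17 at 4 weeks and 7 of 17 between the control-AAV groups. Of these 17 transport and lipoprotein receptor genes 0 were called at 4 weeks, at 8 weeks, in CHL2 and under Elk-1 AAV. At an unadjusted p below 0.05 there were 0 at 4 weeks and 0 under Elk-1 AAV, beside 5.36% and 4.91% of all rows. At 8 weeks there was 1, with a higher value, beside 14.3% of rows. In CHL2 there were 4, of which 3 had higher values and 1 a lower one, beside 13.3% of rows. Between the control-AAV groups 1 of the 17 rose, beside 3.24% of all rows called. It was Apod, a lipid carrier of glia, from 102 to 154 (log2 fold change 0.60 with q = 0.0389 in the authors' deposited table). Apoe, the main apolipoprotein of the brain, stood at 1031 and 949 at 8 weeks (log2 fold change -0.12, q = 0.9505) and at 1501 and 1188 in CHL2 (-0.34 with q = 0.3465) in the authors' deposited tables. Abca1, the cholesterol exporter, stood at 8.00 and 9.21 at 8 weeks (0.20 with q = 0.538) in the authors' deposited table.

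Of the genes for other oxysterol steps (4 to 6 of 6 had a row), 11 genes of fatty acid synthesis and 8 of the branches that leave the mevalonate route, 0 were called in any of the 5 comparisons. The share of all rows called ran from 0.468% to 6.12%. The branch genes had higher values at 8 weeks in 7 of 8 cases, with a median change of 0.14 and 0 at an unadjusted p below 0.05. For fatty acid synthesis 8 of 11 genes had lower values at 8 weeks (median -0.11). At an unadjusted p below 0.05 there was 1 of the 11, beside 14.3% of all rows.

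The level of Cyp46a1 relative to the synthesis genes was read within each pool, where the scaling of a table cancels. The ratio of Cyp46a1 to the summed FPKM of the 6 synthesis genes was 0.700 in WT and 0.690 in R6/1 at 4 weeks. At 8 weeks it was 1.02 in both WT and R6/1, so the turnover gene and the summed synthesis genes were lower by about the same share in R6/1 of that age. At 1 year it was 1.01 in WT and 0.884 in CHL2. Between the control-AAV groups it was 0.759 in WT and 0.787 in R6/1, and under Elk-1 AAV it was 0.979, beside 0.787 in the control of that table. The groups with a control vector at 10 weeks thus lay between the values at 4 and at 8 weeks. Sc4mol alone made up 34.8% to 40.9% of the summed FPKM, depending on the pool.

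Without Fdft1 the ratios were 0.831 and 0.824 at 4 weeks, 1.23 and 1.24 at 8 weeks, and 1.30 and 1.12 at 1 year. For the AAV groups they were 0.967 and 0.975, then 0.975 and 1.26 under Elk-1 AAV. The order of the groups within each table was the same with and without Fdft1 at 4 weeks, at 1 year and in both AAV tables. At 8 weeks, where WT and R6/1 were nearly equal, it turned. These ratios have no error, and no test of them was possible.

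**Figure D3:**
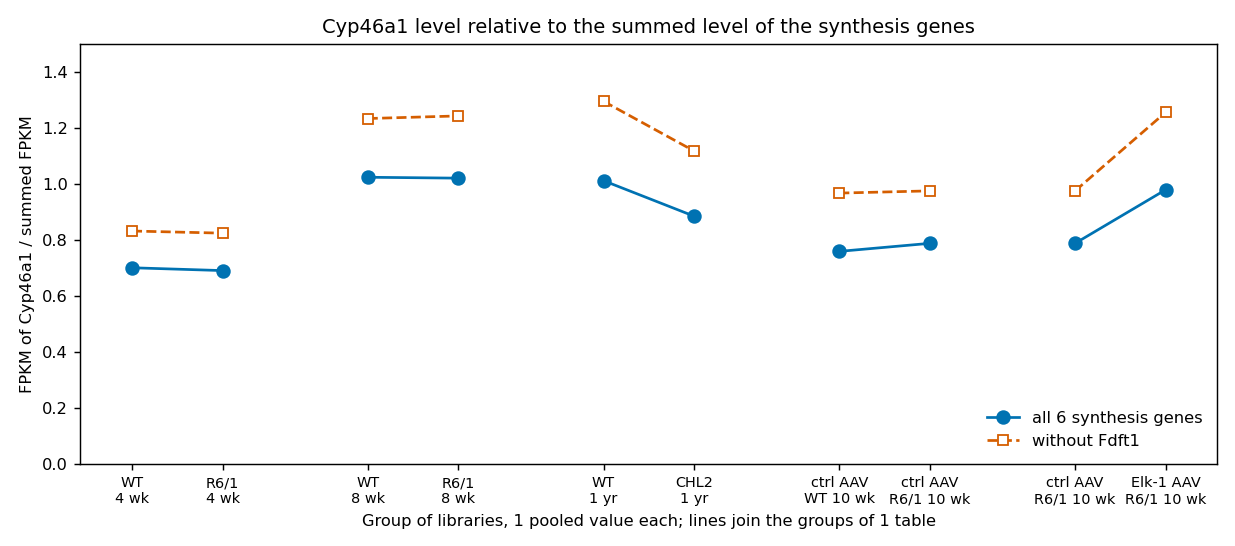
Cyp46a1 FPKM divided by the summed FPKM of the synthesis genes in each pool (circles, all 6 genes; squares, without Fdft1), with lines joining the groups of a table. The circles lie near 0.70 at 4 weeks and near 1.02 at 8 weeks in both genotypes, and reach 0.979 under Elk-1 AAV.

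Genes of like pattern were sought over the 4 genotype comparisons, which share no libraries, among 8726 genes with both groups at an FPKM of at least 5 in all 4 tables. The nearest to the median of the synthesis genes, by root mean square distance of the deposited log2 fold changes, were Nucb2 (0.025), Slc25a23 (0.030), Aff3 (0.035), Shisa9 (0.038) and Cic (0.042). Cyp51 lay at 0.059, Sqle at 0.078, Fdft1 at 0.15, Sc4mol at 0.16 and Dhcr7 at 0.21 from that median. These genes set the median themselves, so the middle ones lie near it by construction. Idi1 also entered the median, but it was below the minimum and no distance was taken. The nearest to Cyp46a1 were Ankrd13b (0.023), Tmem180 (0.028), Kazn (0.030), Dnajc2 (0.035) and Ajap1 (0.036). Of the synthesis genes Sc4mol was the nearest to Cyp46a1 (0.12) and Dhcr7 the farthest (0.26) of the 5 compared.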

How the data were processed

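Total RNA of mouse striatum was extracted with Trizol and prepared for sequencing with TruSeq, per the labels' protocols. TopHat, Bowtie, Cufflinks and Cuffdiff, with the mm9 genome, are named in the submitters' processing notes. Versions, annotation, strand setting and filters are not given in those notes or labels. There are 5 tables that the authors deposited, each with 1 pooled FPKM per group. They also hold the authors' deposited log2 fold change, p-value and q-value, which were used as given; recomputing a Benjamini-Hochberg adjustment over each table's rows returned its q-values. Group names stand in the rows, and mCherry there is the control AAV of the labels.

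Calls are the deposited q below 0.05, since a fit over libraries (limma) would need values per library. Medians used log2(FPKM + 1) over genes whose mean FPKM reached 0.5, leaving out rows named for microRNAs or small nucleolar RNAs; adding 1 makes the changes of low genes look smaller. Tables were made separately, so levels across them were not tested. Depth per library is unknown. If the libraries of a group are not separate animals, which the labels do not state, the p-values measure only a spread that may be technical.

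The 8 genes, the lists, the markers and the motifs were chosen with earlier results of these data known. The 7 genes with a level are named in every comparison. By rule, each list gene with q below 0.05 was to be named as well. Fdps, Lss, Srebf2, Insig1, Apoe and Abca1 are among those named whatever their values. A few list genes that this rule names, called ones included, are counted but not reported here. The computations used Python 3.11.15 with pandas 2.3.3. The adjustment and the search for like patterns were tested on simulated data. Motif searches used exact matches in RefSeq windows of GRCm38.p6.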

Additional observations from a re-analysis of the deposited data

How the results depend on the processing

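At 8 weeks 1 of the 7 genes was called at a deposited q below 0.05, beside 6.12% of all rows. At a q below 0.1 it was 2 (Sc4mol and Cyp46a1), beside 7.72% of rows. At an unadjusted p below 0.05 it was 4, beside 14.3% of rows. Unadjusted counts were 1 for CHL2, 1 for control-AAV R6/1 against WT and 2 for Elk-1 AAV, against 0 by q in each. The unadjusted shares of all rows in these comparisons were 13.3%, 10.7% and 4.91%. The unadjusted threshold was chosen after seeing the data. Adjusting over rows with a mean FPKM of at least 1, or over rows whose position overlaps no other row (which drops Fdft1), left the count at 1 at 8 weeks and 0 in the other 4 comparisons. At 8 weeks these adjustments called 6.51% and 6.95% of their rows. No named gene crossed 0.05 under either adjustment. The median change of the synthesis genes between the control-AAV groups moved from -0.19 to -0.11 without Fdft1 and to -0.11 without Sc4mol, both chosen after seeing the data. Pseudocounts of 0.1 and 5, and subtracting the median of all genes, gave -0.34 to -0.25 for that median at 8 weeks, beside -0.30. In CHL2 it was 0.01, and -0.00089 with a pseudocount of 5.

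No paired analysis was possible because the tables hold 1 pooled value per group, and leaving out a library could not be computed for the same reason. Without counts, the precision of the levels, low ones such as that of Idi1 included, is unknown.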
